A study of Mus musculus with 24 samples.

Results

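The genes described here are 10 genes of the integrated stress response and of serine and one-carbon synthesis, measured by RNA sequencing in mouse brown adipose tissue. They were chosen by symbol: the transcription factor genes Atf4, Atf5 and Ddit3, the stress-induced genes Trib3 and Nupr1, the asparagine synthetase gene Asns, the serine synthesis genes Phgdh and Psat1, and the mitochondrial folate genes Shmt2 and Mthfd2. All 10 had a row among the 23017 genes of the deposited table, and all 10 passed the filter on low values that left 17263 genes to be tested. The 24 samples came from C57BL/6J mice in 4 groups of 6, and the study's title describes obese, insulin-resistant animals. Vehicle mice received the vehicle and PairFedVehicle mice received the vehicle with pair feeding, which limits food to what another group eats. LAGIPRA mice received a long-acting agonist of the receptor for GIP, a gut hormone. TZP mice received tirzepatide, a peptide agonist at the GIP receptor and also at that of GLP-1. Dose, duration, age, sex and the group that set the pair-fed ration are not given in the sources used here, and the labels do not say whether each sample is a separate animal, so p-values measure the spread between these samples, which may be partly technical.

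In the integrated stress response, kinases that sense amino acid shortage, unfolded protein, heme loss or mitochondrial trouble phosphorylate the translation factor eIF2. General protein synthesis then slows while Atf4 mRNA is translated better, so the level of Atf4 mRNA is not a measure of ATF4 protein. ATF4 binds C/EBP-ATF response elements in genes of amino acid supply, and brown fat is a tissue in which mitochondrial stress is known to engage this pathway. Serine is made from a glycolytic intermediate by PHGDH, PSAT1 and PSPH in turn, and SHMT2 and MTHFD2 pass its carbon to folate inside mitochondria.

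The core of the C/EBP-ATF response element, searched as TGATGNAAN on both strands in RefSeq windows from 250 bases before to 50 bases after each start site (GRCm38.p6), was present in 3 of the 12 windows of the 10 genes, 1 each in 3 genes, and in 3.95% of all 32851 windows. The matches lay in Asns, Nupr1 and Trib3, and they are shown because these 3 genes share the core while only Asns was called higher than Vehicle and only Nupr1 lower. The lines run 5′ to 3′ on the strand of the gene, with the match in capitals. The Asns line is chr6:7693210-7693309, minus strand, and ends just before the start site, with the match beginning 23 bases before it. The Nupr1 line is chr7:126625521-126625620, minus strand, with the match beginning 111 bases before the start. The Trib3 line is limited to 30 bases around a match 14 bases into the transcript, at chr2:152344028-152344057, minus strand. The core reads along the gene in Asns and on the opposite strand in Nupr1 and Trib3. A match is a description of the letters and not evidence of binding.
Asns: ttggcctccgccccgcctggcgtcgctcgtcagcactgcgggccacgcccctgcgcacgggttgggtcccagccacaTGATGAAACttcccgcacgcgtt
Nupr1: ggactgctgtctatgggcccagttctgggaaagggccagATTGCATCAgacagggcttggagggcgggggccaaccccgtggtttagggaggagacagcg
Trib3: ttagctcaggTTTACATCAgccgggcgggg

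Psat1 fell in all 3 groups that were compared with free-fed Vehicle, Asns rose under LAGIPRA, and Atf4 passed the test in no comparison. Tests used limma over all tested genes with Benjamini-Hochberg adjustment, two-sided, with a call at an adjusted p under 0.05. In LAGIPRA against Vehicle 3 of the 10 genes passed (Asns higher, Psat1 and Mthfd2 lower), where 13.7% of all tested genes did, 8.7% higher and 5.03% lower. In TZP against Vehicle 2 passed (Psat1 and Nupr1, both lower), with a background of 22% in either direction and 10.3% lower. In PairFedVehicle against Vehicle 1 passed (Psat1, lower), with a background of 8.61% in either direction and 3.66% lower. In TZP against PairFedVehicle 1 passed (Atf5, higher; background 16.4%, or 8.39% higher), and in LAGIPRA against PairFedVehicle 1 passed (Phgdh, higher; background 11.9%, or 7.3% higher). Between TZP and LAGIPRA 0 passed with limma, 2 had an unadjusted p under 0.05 (Nupr1 and Psat1; background 16.4%), and 0.4% of all genes passed. The comparisons with Vehicle share its 6 samples, and those with PairFedVehicle share those 6, so their counts do not stand as separate evidence. The median log2 change of the 10 genes was -0.18 for TZP, -0.02 for LAGIPRA and -0.21 for PairFedVehicle against Vehicle, and 0.04, 0.03 and 0.02 over all tested genes.

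**Figure D1:**
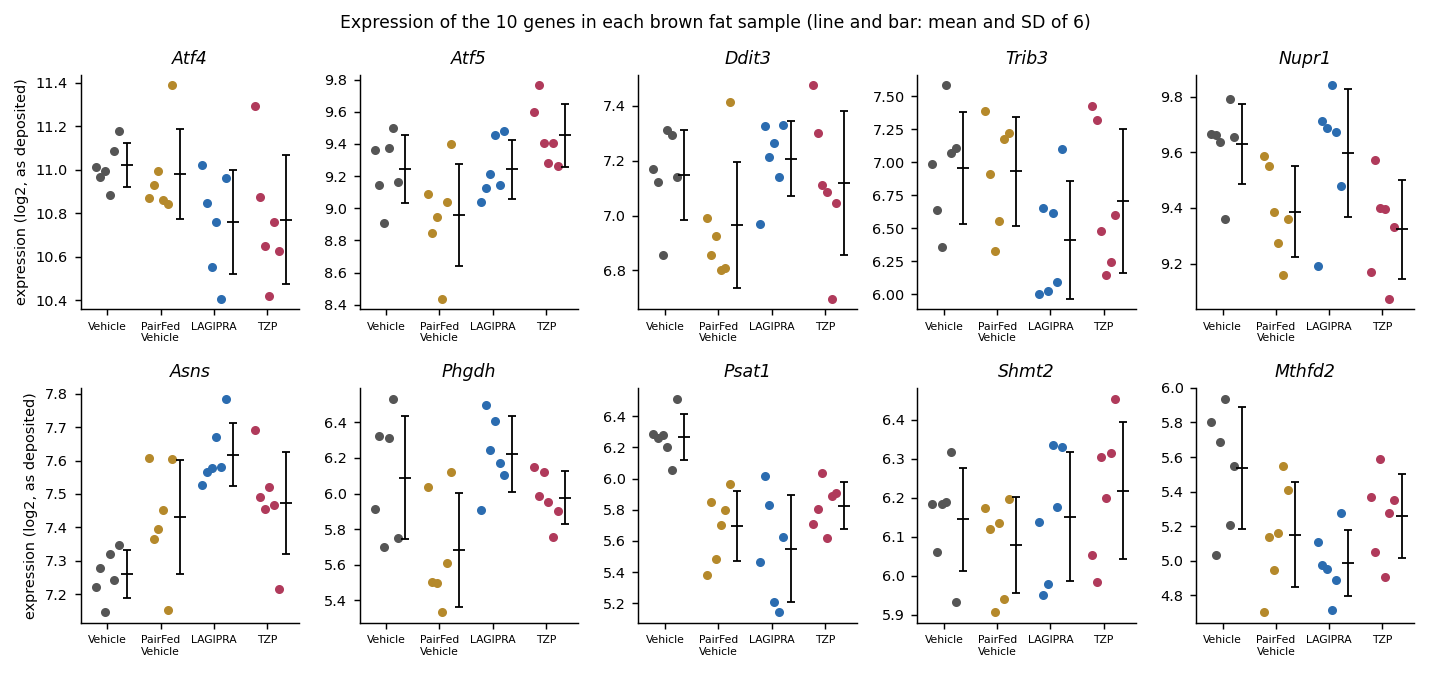
Expression of each gene in the 24 samples (points, log2 values as deposited, each panel with its own scale), with the mean and SD of the 6 samples of a group beside them. Every Psat1 value of the 3 other groups lies below every Vehicle value, and every LAGIPRA value of Asns lies above every Vehicle value.

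Atf4 (Entrez 11911), the transcription factor at the centre of the response, ran from 10.89 to 11.18 in Vehicle (median 11.01, log2 level). It ran from 10.41 to 11.02 in LAGIPRA (median 10.81), from 10.42 to 11.30 in TZP (median 10.70) and from 10.85 to 11.39 in PairFedVehicle (median 10.90). Of the LAGIPRA samples 4 and of the TZP samples 5 lay below all Vehicle samples, and TZP 1 lay above them all. The difference from Vehicle was -0.26 (SE 0.12, limma adjusted p = 0.150) in LAGIPRA and -0.25 (SE 0.12, limma adjusted p = 0.148) in TZP, with 95% intervals from -0.52 to -0.01 and from -0.51 to 0.00. Neither passed. Without TZP 1 the difference of TZP was -0.36 against Vehicle (limma adjusted p = 0.0240) and -0.32 against PairFedVehicle (limma adjusted p = 0.0490). With TZP 1 kept neither passed. With TZP 3 to 6 left out instead, the differences were 0.06 (limma adjusted p = 0.838) and 0.10 (limma adjusted p = 0.745). TZP 3 to 6 are the libraries with less signal in long transcripts, described below, and the cause was not tested.

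Atf5 (Entrez 107503), a related factor of the same family that is also tied to mitochondrial stress, was lowest in PairFedVehicle, from 8.44 to 9.40 (median 8.99, log2 level). It ran from 9.26 to 9.77 in TZP (median 9.41), from 8.91 to 9.50 in Vehicle (median 9.26) and from 9.04 to 9.48 in LAGIPRA (median 9.18). Of the TZP samples 4 lay above all PairFedVehicle samples, and PairFedVehicle 6 reached into their range. TZP was higher than PairFedVehicle by 0.49 (SE 0.13, 1.41-fold, limma adjusted p = 0.0113), a call that held under all 28 alternatives, with adjusted p up to 0.0467. Neither TZP against Vehicle (0.21, limma adjusted p = 0.250) nor PairFedVehicle against Vehicle (-0.28, limma adjusted p = 0.186) passed, so the called difference lies between the 2 groups on either side of Vehicle.

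Ddit3 (Entrez 13198), which encodes the stress factor CHOP, passed in no comparison. Its group means were 7.15 ± 0.16 in Vehicle, 7.21 ± 0.14 in LAGIPRA, 7.12 ± 0.26 in TZP and 6.97 ± 0.23 in PairFedVehicle (SD, n = 6, log2 level). PairFedVehicle 6, at 7.41, lay well above the other PairFedVehicle samples (6.80 to 6.99). The 95% interval of the difference from Vehicle ran from -0.27 to 0.21 in TZP and from -0.18 to 0.30 in LAGIPRA.

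Trib3 (Entrez 228775), a pseudokinase gene induced by ATF4 and CHOP, had the widest spread of the 10 genes. It ran from 6.35 to 7.58 in Vehicle (median 7.03, log2 level), from 6.00 to 7.10 in LAGIPRA (median 6.35), from 6.14 to 7.43 in TZP (median 6.54) and from 6.33 to 7.39 in PairFedVehicle (median 7.04). LAGIPRA samples were low, with 3 of 6 below all Vehicle samples, but the groups overlapped. The difference of LAGIPRA was -0.54 from Vehicle (SE 0.25, limma adjusted p = 0.141) and -0.52 from PairFedVehicle (limma adjusted p = 0.194), and neither passed. With the brown adipocyte marker mean as a covariate both did, at -0.93 (limma adjusted p = 0.0314) and -0.63 (limma adjusted p = 0.0462). With the level of a single read as a covariate, a measure of depth, the latter was -0.78 and passed (limma adjusted p = 0.0349). In TZP the samples parted into 2 high ones (TZP 1 at 7.43 and TZP 2 at 7.32) and 4, TZP 3 to 6, between 6.14 and 6.60. TZP 3 to 6 are also the libraries with less signal in long transcripts. Without them TZP differed from Vehicle by 0.42 (limma adjusted p = 0.417).

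Nupr1 (Entrez 56312), a small stress-induced chromatin protein gene, ran from 9.36 to 9.79 in Vehicle (median 9.66, log2 level) and from 9.07 to 9.57 in TZP (median 9.37). LAGIPRA lay from 9.19 to 9.84 (median 9.68) and PairFedVehicle from 9.16 to 9.59 (median 9.37). Of the TZP samples 3 lay below all Vehicle samples, and Vehicle 4, at 9.36, was the low exception in its group. TZP was lower than Vehicle, at -0.31 (SE 0.10, 0.809-fold, limma adjusted p = 0.0349). The call held in 4 of 12 fits that each left out 1 sample, with adjusted p up to 0.0919. PairFedVehicle was lower, at -0.24 (limma adjusted p = 0.148), and TZP and PairFedVehicle differed by -0.06 (95% interval -0.27 to 0.15).

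Asns (Entrez 27053), which makes asparagine and is among the best known ATF4 targets, ran from 7.15 to 7.35 in Vehicle (median 7.26, log2 level). It ran from 7.53 to 7.79 in LAGIPRA (median 7.58), from 7.22 to 7.69 in TZP (median 7.48) and from 7.15 to 7.61 in PairFedVehicle (median 7.42). All 6 LAGIPRA samples, 5 of 6 TZP samples and 5 of 6 PairFedVehicle samples lay above the highest Vehicle sample. LAGIPRA was higher than Vehicle by 0.36 (SE 0.077, 1.28-fold, limma adjusted p = 0.00835) with no overlap, which 4.65% of all tested genes also showed. TZP was higher by 0.21 (limma adjusted p = 0.0500041, just outside the threshold) and PairFedVehicle by 0.17 (limma adjusted p = 0.186), and neither passed. TZP did pass without TZP 6, the lowest TZP sample (0.27, limma adjusted p = 0.0171). With the macrophage marker mean as a covariate the LAGIPRA difference was 0.22 (limma adjusted p = 0.274), which did not pass, as 0 of all 17263 genes did in that fit. Asns and Atf4 thus lay on opposite sides of Vehicle in LAGIPRA, and only Asns passed the threshold.

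**Figure D2:**
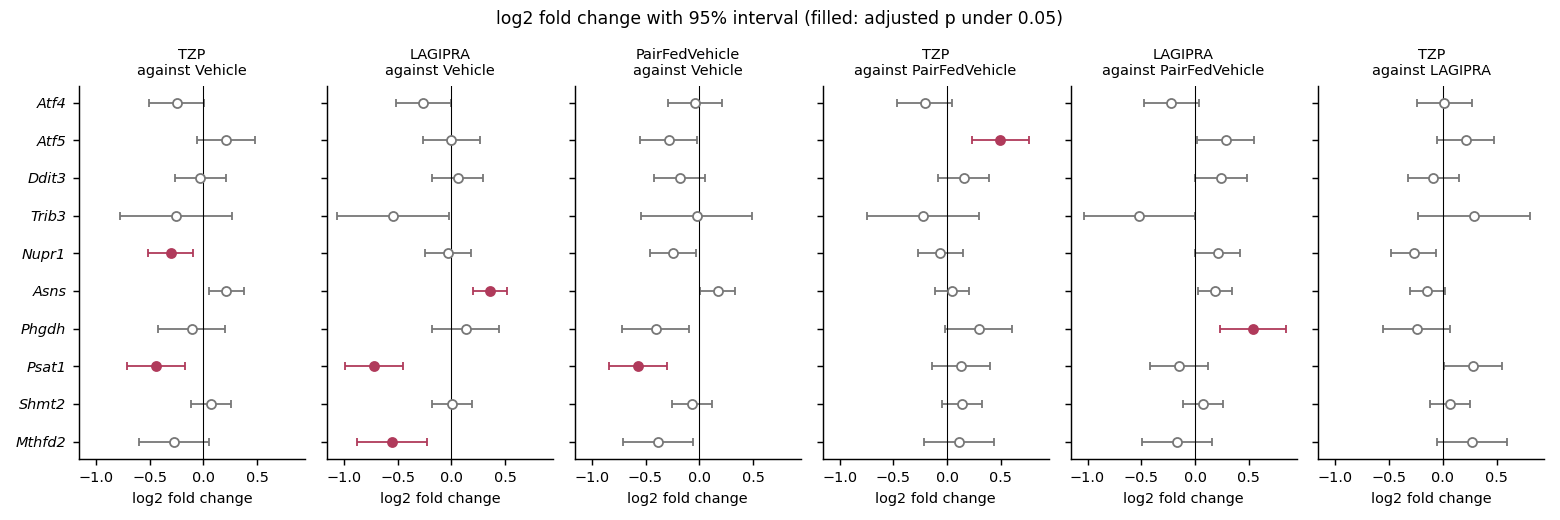
The log2 fold change of each gene in the 6 comparisons (points) with its 95% interval (bars), filled where limma's adjusted p was under 0.05. Psat1 is filled to the left of 0 in each comparison with Vehicle, and no gene is filled for TZP against LAGIPRA.

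The serine synthesis genes went separate ways. Psat1 (Entrez 107272), the aminotransferase of the second step, ran from 6.05 to 6.51 in Vehicle (median 6.27, log2 level). It ran from 5.15 to 6.02 in LAGIPRA (median 5.55), from 5.62 to 6.03 in TZP (median 5.85) and from 5.38 to 5.96 in PairFedVehicle (median 5.75). None of these 18 samples reached the lowest Vehicle sample. The difference from Vehicle was -0.72 in LAGIPRA (SE 0.13, 0.609-fold, limma adjusted p = 0.00514), -0.57 in PairFedVehicle (SE 0.13, 0.674-fold, limma adjusted p = 0.00776) and -0.44 in TZP (SE 0.13, 0.738-fold, limma adjusted p = 0.0195). Groups without overlap were found for 4.65%, 4.76% and 5.45% of all tested genes in these comparisons. The call in TZP ended without TZP 4 (-0.40, limma adjusted p = 0.0505). Neither drug group differed from PairFedVehicle past the threshold, at 0.13 (95% interval -0.14 to 0.40) for TZP and -0.15 (-0.42 to 0.12) for LAGIPRA.

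Macrophage markers were lower beside Psat1, with the most calls in LAGIPRA. Of 12 markers 7 passed as lower there, against 5.03% of all tested genes. In TZP 1 passed as lower (10.3% of all genes) and in PairFedVehicle 0 did (3.66% of all genes). An unadjusted limma p under 0.05 was reached by 10 in LAGIPRA, 8 in TZP and 3 in PairFedVehicle. Of all 17263 tested genes 5436, 6168 and 3977 reached it. The median log2 change of the markers was -0.83, -0.51 and -0.27, and between TZP and LAGIPRA 0 passed. None of these markers was near 0, the lowest single value being 4.83 for Fcgr1. Their mean log2 level ran from 8.03 to 9.12 in Vehicle, 7.49 to 8.48 in LAGIPRA, 7.70 to 8.71 in TZP and 7.78 to 9.11 in PairFedVehicle. With that mean as a covariate, an alternative chosen after the data were seen, Psat1 differed from Vehicle by -0.43 in LAGIPRA (limma adjusted p = 0.179) and -0.24 in TZP (limma adjusted p = 0.147), and neither passed. In that fit 0 of all 17263 genes passed in LAGIPRA against Vehicle and 15.3% did in TZP, so the lost call in LAGIPRA is shared by every gene. In PairFedVehicle Psat1 still passed, at -0.45 (limma adjusted p = 0.00578; 11.5% of all genes). The mean of the neutrophil markers was higher in every PairFedVehicle library (4.89 to 5.45) than in every Vehicle library (3.64 to 4.68). That mean rested on 3 of the 6 listed markers, of which 1 passed as higher in PairFedVehicle, beside 4.96% of all tested genes. Its part in the result was not tested. In whole tissue, fewer cells of a type and less RNA per cell cannot be told apart.

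Phgdh (Entrez 236539), the first and committed step, followed another order. It was lowest in PairFedVehicle, from 5.34 to 6.12 (median 5.56, log2 level), and ran from 5.90 to 6.50 in LAGIPRA (median 6.21), from 5.75 to 6.15 in TZP (median 5.97) and from 5.70 to 6.53 in Vehicle (median 6.11). Of the LAGIPRA samples 4 lay above all PairFedVehicle samples, and the groups overlapped through PairFedVehicle 1 and 6. LAGIPRA was higher than PairFedVehicle by 0.54 (SE 0.15, 1.45-fold, limma adjusted p = 0.0208). The call ended without any 1 of LAGIPRA 4, PairFedVehicle 2 and PairFedVehicle 4 (limma adjusted p = 0.0541, 0.0531 and 0.0608) and with the macrophage marker mean as a covariate (0.39, limma adjusted p = 0.0918). The call also ended with the level of a single read as a covariate (0.46, limma adjusted p = 0.0791). PairFedVehicle was lower than Vehicle, at -0.40 (limma adjusted p = 0.0989), which did not pass.

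Psph, the gene of the last step of serine synthesis, was also higher in LAGIPRA than in PairFedVehicle. Its level was 5.31 ± 0.20 in PairFedVehicle, 5.98 ± 0.22 in LAGIPRA, 5.87 ± 0.22 in TZP and 5.56 ± 0.15 in Vehicle (SD, n = 6, log2 level). LAGIPRA exceeded PairFedVehicle by 0.67 (SE 0.12, limma adjusted p = 0.000534) and TZP exceeded it by 0.55 (SE 0.12, limma adjusted p = 0.00277), both without overlap, as were 5.86% and 4.92% of all tested genes. LAGIPRA also exceeded Vehicle by 0.42 (limma adjusted p = 0.0228). In TZP against Vehicle neither Psph (0.30, limma adjusted p = 0.0655) nor Phgdh (-0.11) passed, and their differences had opposite signs. Among the 3 enzymes of the pathway, the middle one was therefore the only one called against Vehicle in the PairFedVehicle and TZP groups.

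Of the mitochondrial folate genes, Mthfd2 (Entrez 17768), a dehydrogenase usually abundant in dividing cells, ran from 5.03 to 5.94 in Vehicle (median 5.62, log2 level). It ran from 4.72 to 5.28 in LAGIPRA (median 4.96), from 4.91 to 5.59 in TZP (median 5.31) and from 4.70 to 5.55 in PairFedVehicle (median 5.15). Of the LAGIPRA samples 4 lay below all Vehicle samples, and Vehicle 2 and 5 were low in their group. LAGIPRA was lower than Vehicle, at -0.55 (SE 0.16, 0.683-fold, limma adjusted p = 0.0260). That call held in 6 of 12 fits that each left out 1 sample, with adjusted p up to 0.0702, and it ended with the macrophage marker mean as a covariate (-0.28, limma adjusted p = 0.539; 0 of all genes passed) or the brown adipocyte marker mean (-0.47, limma adjusted p = 0.115; 4.33% of all genes passed). Shmt2 (Entrez 108037), which splits serine into glycine and a folate-bound carbon, had the narrowest range of group means of the 10 genes. Its means were 6.14 ± 0.13 in Vehicle, 6.15 ± 0.17 in LAGIPRA, 6.22 ± 0.18 in TZP and 6.08 ± 0.12 in PairFedVehicle (SD, n = 6, log2 level), and the 95% intervals of its 3 differences from Vehicle lay between -0.25 and 0.26.

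Libraries differed in properties that touch these results. The low value that recurs most often in each library was read as the level of a single read, which is larger in a shallower library. It ran from 0.89 to 1.35 in Vehicle, 1.12 to 1.68 in LAGIPRA, 0.96 to 1.53 in TZP and 1.02 to 1.26 in PairFedVehicle. With it as a covariate 0.261% of all tested genes passed in LAGIPRA against Vehicle, where 13.7% had passed without it. Of the 10 genes 0 passed, at 0.24 for Asns (limma adjusted p = 0.134), -0.58 for Psat1 (limma adjusted p = 0.0776) and -0.53 for Mthfd2 (limma adjusted p = 0.160), and Psat1 no longer passed in TZP (-0.32, limma adjusted p = 0.143). TZP 3 to 6 had less signal in long transcripts (slope of the log2 level on log2 length from -0.16 to -0.064, against 0.014 to 0.058 in Vehicle). With the slope on transcript length as a covariate 1.18% of all tested genes passed in TZP against Vehicle, where 22% had passed without it, and neither Psat1 (-0.38, limma adjusted p = 0.286) nor Nupr1 (-0.24, limma adjusted p = 0.388) passed in TZP, although with TZP 1 and 2 alone Psat1 differed from Vehicle by -0.51 (limma adjusted p = 0.114) and Nupr1 by -0.26 (limma adjusted p = 0.280). When the values themselves were corrected for transcript length instead, 23.9% of 15295 genes passed in TZP against Vehicle. Psat1 and Nupr1 were still called lower in that fit. In TZP 7 of 11 endothelial and 5 of 5 erythroid markers were called lower than in Vehicle, where 10.3% of all tested genes were. The part of these markers in the TZP results was not tested. Among the brown adipocyte markers, values over the libraries ran from 14.70 to 15.91 for Ucp1 and from 3.16 to 5.48 for Prdm16. Skeletal muscle markers averaged under 1 in Vehicle 1, TZP 3 and PairFedVehicle 5 and at least 4.12 elsewhere.

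Within the groups, Atf5, Ddit3 and Trib3 varied together from sample to sample, while Nupr1 and Atf4 passed with none of them. Pearson r was computed over the 24 samples after the mean of each group was removed, for 45 pairs, with a permutation test that shuffled samples within groups and adjustment over the pairs. Of the 45 pairs 6 passed, 5 positive and 1 negative. Atf5, Ddit3 and Trib3 formed a triangle, at r = 0.71 for Atf5 and Ddit3 (rho = 0.79, permutation p = 0.000430, adjusted 0.00484), 0.70 for Atf5 and Trib3 (rho = 0.68, permutation p = 0.000290, adjusted 0.00484) and 0.71 for Ddit3 and Trib3 (rho = 0.76, permutation p = 0.000420, adjusted 0.00484). Each of these was positive in all 4 groups, and without the 2 samples farthest from the median r was 0.65, 0.75 and 0.75. In TZP, samples 1 and 2 were the highest for each of Atf5, Ddit3 and Trib3. TZP 3 to 6 were the libraries with less signal in long transcripts, and their part in these relations was not tested. Phgdh joined Ddit3 at r = 0.71 (rho = 0.74, permutation p = 4.00e-05, adjusted 0.00180, 0.66 without the 2 farthest samples) and Atf5 at 0.63 (rho = 0.57, permutation p = 0.00290, adjusted 0.0217, 0.50 without the 2 farthest samples).

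Atf4 itself did not join them past the threshold. Its r was 0.49 with Ddit3 (rho = 0.41, permutation p = 0.0377, adjusted 0.152) and 0.48 with Trib3 (rho = 0.38, permutation p = 0.0356, adjusted 0.152), and the former dropped to 0.09 without the 2 samples farthest from the Atf4 median, so it rests on those. Within PairFedVehicle r of Atf4 and Ddit3 was 0.94, and within Vehicle it was -0.06. Mthfd2 and Nupr1 were the negative pair, at r = -0.58 (rho = -0.64, permutation p = 0.00263, adjusted 0.0217), negative in all 4 groups and -0.56 without the 2 farthest samples. Psat1 and Phgdh, neighbours in 1 pathway, had r = -0.07 (rho = -0.11, permutation p = 0.735, adjusted 0.872).

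**Figure D3:**
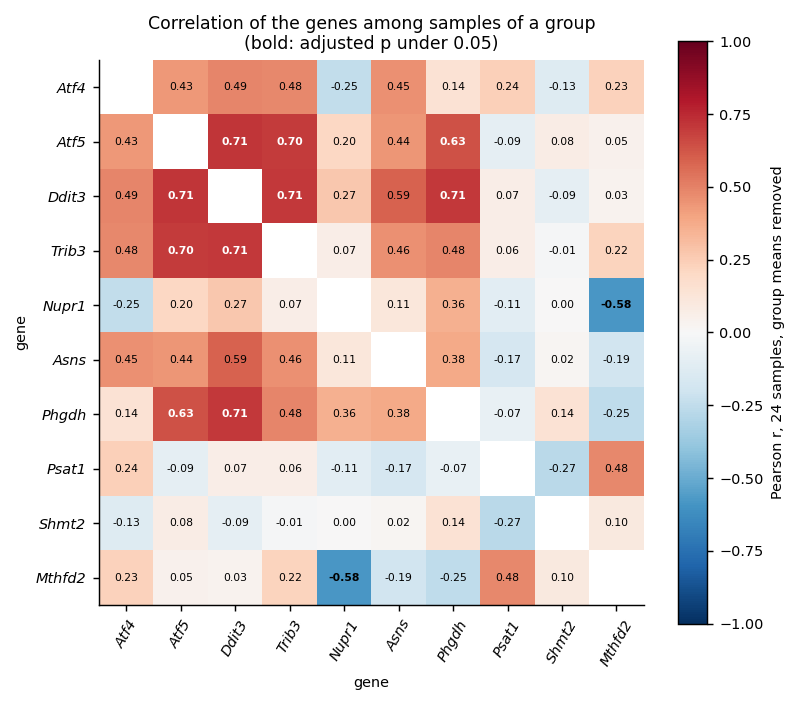
Pearson r between the 10 genes over 24 samples with group means removed (colour and number, bold where the adjusted p was under 0.05). The block of high values joins Atf5, Ddit3, Trib3 and Phgdh, and Psat1 has no bold value.

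The same samples were set against the mean of each marker list, again with group means removed, in 30 relations adjusted together. With the mean of 14 brown adipocyte markers 6 of the 10 genes were positively related and 0 negatively. Asns had the highest value, r = 0.74 (rho = 0.73, permutation p = 8.00e-05, adjusted 0.00240, 0.59 without the 2 farthest samples), followed by Ddit3 at 0.63 (rho = 0.70, permutation p = 0.00572, adjusted 0.0209, 0.58 without them). The relation of Atf4 (r = 0.51, rho = 0.50, permutation p = 0.0275, adjusted 0.0485) fell to 0.29 without the 2 farthest samples and rests on them. With the mean of 12 macrophage markers, Psat1 was positively related at r = 0.70 (rho = 0.69, permutation p = 0.000530, adjusted 0.00795, 0.64 without the 2 farthest samples). Mthfd2 was so at r = 0.55 (rho = 0.53, permutation p = 0.0101, adjusted 0.0252, 0.41 without them). Asns (r = -0.61, rho = -0.59, permutation p = 0.00295, adjusted 0.0171), Atf5, Ddit3 and Phgdh were negatively related to it. By rank Asns and Atf5 also passed. Ddit3 (rho = -0.46, permutation test adjusted p = 0.0604) and Phgdh (rho = -0.43, permutation test adjusted p = 0.0721) did not. For Phgdh r went from -0.53 to -0.36 without the 2 farthest samples. With endothelial markers 5 genes were positively related, Ddit3 most (r = 0.68, rho = 0.73, permutation p = 0.000990, adjusted 0.00990, 0.78 without the 2 farthest samples). The marker means were themselves related, brown adipocyte against macrophage at r = -0.63 (rho = -0.64, permutation p = 0.000940), so these relations are not separate. In TZP 1 and 2 the endothelial mean was 7.38 and 7.41 and the brown adipocyte mean 11.05 and 10.88. In TZP 3 to 6 they ran from 6.85 to 7.24 and from 10.19 to 10.51. TZP 3 to 6 were the libraries with less signal in long transcripts, and their part in these relations was not tested.

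**Figure D4:**
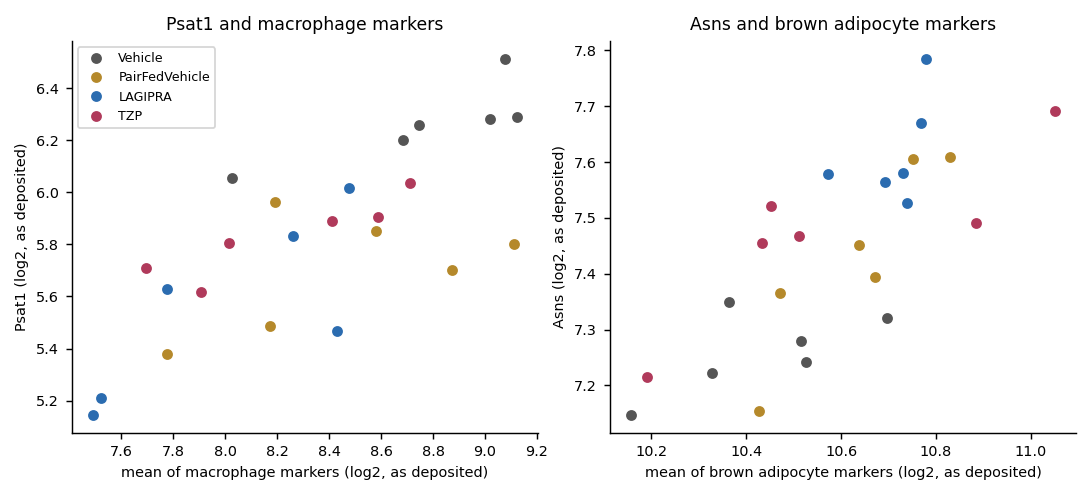
Psat1 against the mean of the macrophage markers (left) and Asns against the mean of the brown adipocyte markers (right) in the 24 samples, on the log2 scale as deposited, coloured by group. Psat1 is lowest in the LAGIPRA samples with the lowest macrophage mean, and Asns is highest in samples with a high brown adipocyte mean.

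The genes whose pattern over the 24 samples was most like each of the 10 were listed by r (Pearson r with group means removed, over all tested genes, as a description). Psat1 was most like Itgax (r = 0.85), Axl (0.82) and Pira6 (0.82), genes expressed by myeloid cells. Phgdh was most like Idh2 (0.83), a mitochondrial isocitrate dehydrogenase gene, and Asns had Eci2 (0.83), an enzyme gene of fatty acid oxidation, and Bcl2l13 (0.83) beside it. Atf4 was most like Slc3a2 (0.84), the heavy chain of several amino acid transporters, then Fam117b (0.81) and Sdc4 (0.80). Trib3 was most like the autophagy genes Gabarapl1 (0.86) and Atg101 (0.84). Atf5 was most like Comtd1 (0.83) and Ccdc85c (0.83), and Ddit3 like Cpm and Kank4 (both 0.79). Nupr1 had Rad9b (0.82), Shmt2 had Atp23 (0.78) and Mthfd2 had Atp6v0b (0.77), a subunit of the lysosomal proton pump.

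Upstream of Atf4, 16 genes of eIF2 kinases, their regulators, eIF2 phosphatase subunits and the exchange factor eIF2B were tested. Against Vehicle 3 were higher and 3 lower in TZP, 3 higher and 1 lower in LAGIPRA and 0 either way in PairFedVehicle. There limma gave 3 of the 16 an unadjusted p under 0.05, and 3977 of all 17263 tested genes. Over all tested genes 11.7% were called higher and 10.3% lower in TZP, 8.7% and 5.03% in LAGIPRA, and 4.96% and 3.66% in PairFedVehicle. The median log2 change of the list was 0.05, 0.02 and 0.05. Eif2b4, an eIF2B subunit gene, rose in TZP (0.46, SE 0.085, limma adjusted p = 0.00133) and LAGIPRA (0.38, limma adjusted p = 0.0104), both without overlap. The gene of DELE1, the relay of mitochondrial stress to eIF2 kinases and listed as 0610009O20Rik, rose in LAGIPRA by 0.29 (limma adjusted p = 0.0166) and in TZP by 0.23 (limma adjusted p = 0.0331). Lower in TZP were Gcn1l1, a partner of the amino acid sensor GCN2 (-1.20, SE 0.25, limma adjusted p = 0.00225), and Ppp1r15b, a subunit of the eIF2 phosphatase (-0.69, limma adjusted p = 0.00779). Eif2ak2, the kinase PKR, was lower in TZP (-0.54, limma adjusted p = 0.00970) and also in LAGIPRA (-0.48, limma adjusted p = 0.0288). The SD of Gcn1l1 was 0.88 in TZP and 0.14 in Vehicle and that of Ppp1r15b 0.59 and 0.12. TZP 3 to 6 were the libraries with less signal in long transcripts, and their part in the falls in TZP was not tested.

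Of 32 further ATF4 target genes 27 were tested, and their calls did not share a direction across the comparisons with Vehicle. Against Vehicle 1 was higher and 2 lower in TZP, 0 higher and 4 lower in LAGIPRA, and 3 higher and 0 lower in PairFedVehicle, with medians of -0.03, -0.07 and -0.08. Of all tested genes 22%, 13.7% and 8.61% were called in either direction. In LAGIPRA, where each call of the list was lower, 5.03% of all tested genes were called lower. In PairFedVehicle, where each was higher, 4.96% of all tested genes were called higher. In LAGIPRA the 4 lower genes were Slc7a5, the light chain of a leucine transporter (-1.03, SE 0.22, limma adjusted p = 0.00787), Sqstm1, an autophagy receptor gene (-0.45, limma adjusted p = 0.0140), Aldh18a1 of proline synthesis (-0.63, limma adjusted p = 0.0207) and the stress factor gene Atf3 (-0.73, limma adjusted p = 0.0266). In PairFedVehicle the higher genes were Vldlr, a lipoprotein receptor gene (0.54, limma adjusted p = 0.00239), Pck2, mitochondrial PEP carboxykinase (0.36, limma adjusted p = 0.0266), and Sesn2, a leucine sensor gene (0.49, limma adjusted p = 0.0397). Pck2 was 6.74 ± 0.16 in PairFedVehicle against 6.12 ± 0.19 in LAGIPRA and 6.28 ± 0.18 in TZP (SD, n = 6, log2 level), lower than PairFedVehicle, at -0.62 (SE 0.099, limma adjusted p = 0.000233) and -0.47 (limma adjusted p = 0.00303), both without overlap. In LAGIPRA against PairFedVehicle 2 of the 27 were called higher and 5 lower, beside 1260 and 786 of all 17263 tested genes. Cebpb, a partner of ATF4 on its response elements, exceeded PairFedVehicle in TZP by 0.73 (SE 0.13, limma adjusted p = 0.000978) and in LAGIPRA by 0.55 (limma adjusted p = 0.00908). Of the secreted ATF4 targets, named here after their values were seen, Fgf21 differed from Vehicle by 0.44 in TZP (limma adjusted p = 0.506) and Gdf15 by -1.02 in LAGIPRA (limma adjusted p = 0.0982).

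Cytosolic tRNA synthetase genes, many of them ATF4 targets, showed small changes. Of 20 tested, 1 was higher and 2 lower in TZP, 0 higher and 1 lower in LAGIPRA and 0 higher and 1 lower in PairFedVehicle against Vehicle, where 22%, 13.7% and 8.61% of all tested genes were called. Nars fell in LAGIPRA (-0.17, limma adjusted p = 0.0398), Aars fell in PairFedVehicle (-0.22, limma adjusted p = 0.0425), and in TZP Farsb rose (0.25, limma adjusted p = 0.0238) while Eprs (-0.30, limma adjusted p = 0.0442) and Nars (-0.15, limma adjusted p = 0.0408) fell.

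Other enzymes of serine, glycine and folate carbon were more often higher. Of 32 listed 26 were tested, with 5 higher and 2 lower in TZP, 7 higher and 1 lower in LAGIPRA, and 2 higher and 0 lower in PairFedVehicle against Vehicle. Of all tested genes 11.7%, 8.7% and 4.96% were called higher. Medians were 0.19, 0.21 and 0.01, beside 0.04, 0.03 and 0.02 over all tested genes. Sfxn1, the mitochondrial serine carrier, rose in all 3 groups, by 0.28 in TZP (SE 0.077, limma adjusted p = 0.0143), 0.32 in LAGIPRA (limma adjusted p = 0.0131) and 0.31 in PairFedVehicle (limma adjusted p = 0.0144). Shmt1, the cytosolic counterpart of Shmt2, rose by 0.83 in PairFedVehicle (SE 0.14, limma adjusted p = 0.000426), 0.49 in LAGIPRA (limma adjusted p = 0.0231) and 0.43 in TZP (limma adjusted p = 0.0271), and TZP was lower than PairFedVehicle (-0.40, limma adjusted p = 0.0464). Sdsl, a serine dehydratase-like gene, rose in TZP (0.54, limma adjusted p = 0.00627). Gcat, which breaks down threonine to glycine, exceeded PairFedVehicle in TZP by 0.71 (SE 0.14, limma adjusted p = 0.00144). Mtr, methionine synthase, fell in LAGIPRA (-0.69, limma adjusted p = 0.0100) and TZP (-0.55, limma adjusted p = 0.0135).

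Mitochondrial chaperone and protease genes, which are induced in mitochondrial stress and also rise with mitochondrial content, had 5 higher and 0 lower in TZP, 7 and 0 in LAGIPRA and 2 and 0 in PairFedVehicle of 14 tested against Vehicle. Of all tested genes 11.7%, 8.7% and 4.96% were called higher. The median change was 0.18, 0.26 and 0.01. Phb2, a prohibitin gene, rose in TZP (0.28, SE 0.047, limma adjusted p = 0.000854) and LAGIPRA (0.30, limma adjusted p = 0.00242), both without overlap, and less in PairFedVehicle (0.16, limma adjusted p = 0.0354). Afg3l2, an inner membrane protease gene, rose in LAGIPRA (0.34, limma adjusted p = 0.0186), and Clpp, a matrix protease gene, rose in TZP (0.34, limma adjusted p = 0.00900). Of 14 brown adipocyte markers 2 were called higher and 1 lower in TZP. In LAGIPRA and in PairFedVehicle 5 were called higher and 0 lower, so these counts ran in another order. Their medians kept the order of the chaperone list, at 0.23 in TZP, 0.25 in LAGIPRA and 0.18 in PairFedVehicle.

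**Figure D5:**
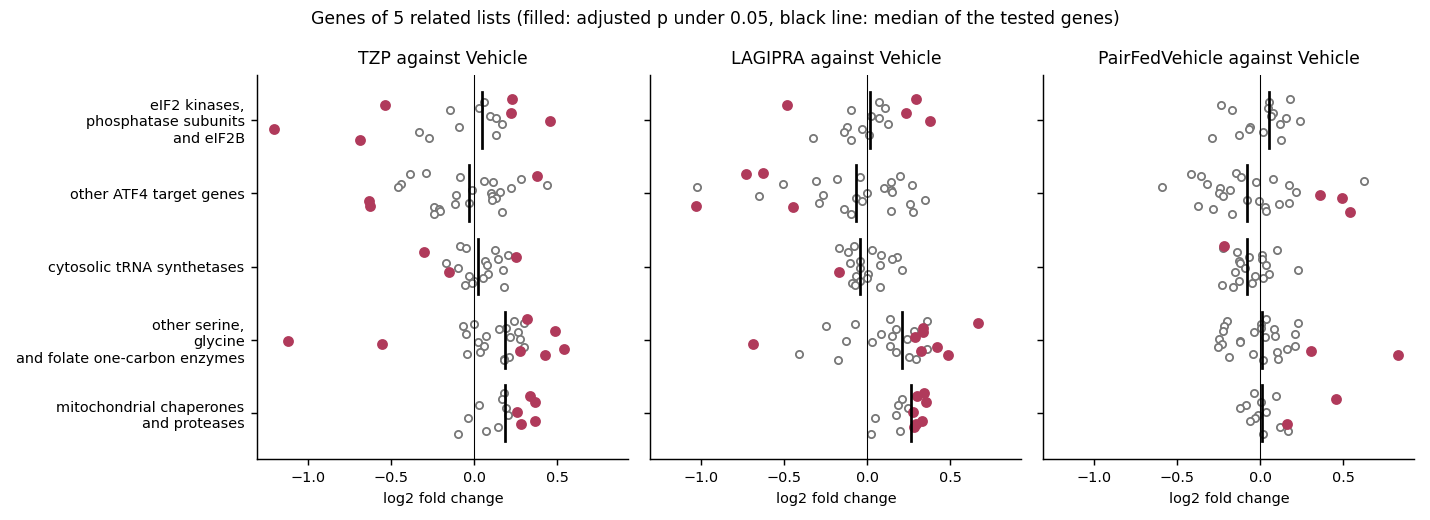
log2 fold change against Vehicle of each tested gene in the 5 related lists (points, filled where limma's adjusted p was under 0.05, with a black line at the median of a list). The medians of the mitochondrial chaperone and one-carbon lists lie to the right of 0 in TZP and LAGIPRA. The other ATF4 target genes have filled points on either side in TZP, only to the left in LAGIPRA and only to the right in PairFedVehicle.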

How the data were processed

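Per the labels' protocols, RNA was isolated with TRIzol and an RNeasy lipid kit and selected for polyA. The submitters' processing notes name cutadapt 1.9.1 and GSNAP. Build, annotation, counter and strandedness are not given in the sources used here. Values deposited by the authors are 1 per gene and sample and were read as log2 with an offset near 1, quantile normalized. This scale was inferred from the values (-0.50 to 22.35), and such an offset understates changes of weakly expressed genes. The step from reads to gene values is not known, so levels were not compared between genes. Read totals are unknown, which leaves the counting error of single values unknown.

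The 25% of genes with the lowest mean (below 2.86) were left out. limma 3.58.1 in R 4.3.3 fitted 1 mean per group to all 24 samples with a mean-variance trend. Benjamini-Hochberg adjustment ran over all 17263 tested genes. Correlations used 100000 permutations within groups. Transcript lengths came from GENCODE M21 for 88.6% of tested genes, and list symbols were matched through RefSeq, 113 of 114 found. The procedures were tested on simulated data. The members and lists were chosen with earlier results of these data known. All 10 members are named; of each list, up to 4 called genes with the smallest p per comparison, not all printed and 1 not reported here; and the 3 genes most like each member, predicted models passed over. Figures were drawn with matplotlib 3.10.9.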

Additional observations from a re-analysis of the deposited data

Results flagged for a closer look

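In 40 groups of 6 values (10 genes in 4 groups), 3 values stood apart from the other 5 of their group by Dixon's criterion, which chance alone meets in about 1 in 20 groups. Atf4 in PairFedVehicle 6 was 11.39, against 10.85 to 10.995 in the other PairFedVehicle samples. Ddit3 in the same sample was 7.41, against 6.80 to 6.99. Nupr1 in Vehicle 4 was 9.36, against 9.64 to 9.79 in the other Vehicle samples. PairFedVehicle 6 was also the highest PairFedVehicle sample for Atf5 (9.40), Phgdh (6.12) and Psat1 (5.96). Without it Phgdh was lower in PairFedVehicle than in Vehicle, at -0.49 (limma adjusted p = 0.0450), and Ddit3 in LAGIPRA exceeded PairFedVehicle by 0.33 (limma adjusted p = 0.0442).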

How the results depend on the processing

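The 60 changes (10 genes in 6 comparisons), 8 of them called, were computed again in 1650 fits with 1 choice altered: 1593 kept their side of the threshold, 36 lost a call, 21 gained one and 0 called changes reversed. Another 61 signs changed where neither fit made a call. The number of genes called in TZP against Vehicle went from 2 to 1 with the 1-read value or the macrophage marker mean as a covariate, and to 1 without the 3 libraries lowest in muscle markers. It rose to 3 with the brown adipocyte mean (Atf4 added), and with the filter at the median gene mean, repeated quantile normalization or sample quality weights (Asns added). It went to 0 without TZP 3 to 6 or when the length slope entered the fit. In LAGIPRA against Vehicle it went from 3 to 0 with the 1-read value or the macrophage mean as a covariate. In PairFedVehicle against Vehicle it went from 1 to 2 with sample quality weights, 3 with the macrophage mean and 4 with the brown adipocyte mean. In LAGIPRA against PairFedVehicle it went from 1 to 3 with sample quality weights, 2 with the brown adipocyte mean, and 0 with the macrophage mean or without the 3 libraries low in muscle markers. The cause was not tested. Both marker means were added as covariates after the data were seen.

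Leaving out 1 sample at a time gave 1 to 2 calls in TZP against Vehicle, 2 to 3 in LAGIPRA against Vehicle, 1 to 2 in PairFedVehicle against Vehicle, 1 to 2 in TZP against PairFedVehicle, 0 to 2 in LAGIPRA against PairFedVehicle and 0 to 0 in TZP against LAGIPRA. Without the group means removed, 6 pairs of genes passed, but Atf5 with Trib3, Ddit3 with Trib3 and Nupr1 with Mthfd2 were lost, and Atf4 with Trib3, Psat1 with Mthfd2 and Asns with Psat1 (negative) were gained; 8 passed without the 3 libraries low in muscle markers and 7 with Spearman's rho. With the replicate number as a block the counts were 2, 3, 1, 1, 1 and 0, as without it. Samples with the same number had correlations from -0.60 to 0.38. Their mean was highest in LAGIPRA against Vehicle, at 0.18 (-0.04 for unlike numbers), where 5 of 6 numbers exceeded 0.1. It was lowest in TZP against PairFedVehicle, at -0.14, so the numbers showed no pairing common to all groups. Read totals are unknown, which limits what can be said of small changes in weakly expressed genes.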
